A study of Homo sapiens with 24 samples.

Results

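MYOCD, SRF and 8 genes that encode contractile or smooth muscle proteins (TNNT2, ACTA2, TAGLN, CNN1, MYH11, MYLK, LMOD1 and DES) were followed by RNA-seq in 24 libraries of human osteosarcoma cells. The 10 genes were taken by symbol from the 57820 genes counted in every library, and each symbol matched 1 gene. The set was chosen by measured values: MYOCD and TNNT2 had drawn attention through their lower counts in AID-DIvA cells after mocetinostat and recovery, so the differences of all 10 genes in that contrast are given below as a description, with no test. SRF and the other genes were added as the partner of MYOCD and as contractile genes. All 10 genes passed the filter on low counts in every comparison.

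The 24 libraries formed 8 groups of 3 biological replicates. All came from U2OS, an established osteosarcoma line. AID-DIvA is a U2OS derivative that carries the restriction enzyme AsiSI under control of tamoxifen and auxin, and no break induction is given for these libraries. In AID-DIvA, each genotype, wild type (WT) or knockout of ID3 (KO), was either untreated or given mocetinostat for 24 h followed by 24 h of recovery without it. U2OS cells, WT or ID3-KO, were untreated or were treated with mocetinostat, for 24 h and without recovery as inferred from the methods and the deposited design. Mocetinostat inhibits class I histone deacetylases. Its dose in these experiments, the guide that made the knockouts and whether each KO line is 1 clone are not given in the sources used here. Controls are labelled untreated, and the study's headings name DMSO for them. Titles decided the AID-DIvA groups, since the treatment entry of those samples says the opposite of their titles. Line name and stage of collection coincide, so recovery and line cannot be told apart.

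Myocardin, the product of MYOCD, is a coactivator that does not bind DNA itself but docks on serum response factor (SRF), and it is known as a master regulator of smooth muscle and cardiac gene expression. SRF binds a short DNA element called the CArG box, which lies near the start of many smooth muscle and cytoskeletal genes. SRF has other partners: the MRTF coactivators (MKL1 and MKL2), which respond to the actin cytoskeleton, and the ternary complex factors ELK1, ELK3 and ELK4, which couple it to growth signals and immediate early genes. Myocardin-driven genes are typical of smooth muscle, not of bone-derived cells.

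Promoters of 6 of the 10 genes were present in the RefSeq promoter table (GRCh38.p14), with 8 promoters in all; those of MYOCD, TAGLN, MYH11 and DES were not. The 250 bases before each start are shown for 5 of them, because the CArG box is the element through which SRF and myocardin act. Capitals mark matches to the CArG box, or to a CArG-like sequence that has a single G or C inside its A/T core, and each match also reads as one on the other strand.
SRF, first promoter (chr6:43171019-43171268, plus strand): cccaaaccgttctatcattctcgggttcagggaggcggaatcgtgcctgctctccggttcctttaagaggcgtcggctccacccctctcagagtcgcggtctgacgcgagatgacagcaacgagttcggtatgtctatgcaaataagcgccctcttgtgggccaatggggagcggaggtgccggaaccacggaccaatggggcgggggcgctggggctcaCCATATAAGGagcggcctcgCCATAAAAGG
ACTA2, second promoter (chr10:88952774-88953023, minus strand): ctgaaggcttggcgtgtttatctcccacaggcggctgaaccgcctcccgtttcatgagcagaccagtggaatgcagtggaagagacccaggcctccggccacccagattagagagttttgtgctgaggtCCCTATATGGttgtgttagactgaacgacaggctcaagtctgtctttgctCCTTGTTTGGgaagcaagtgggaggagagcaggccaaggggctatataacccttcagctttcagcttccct
MYLK (chr3:123620549-123620798, minus strand): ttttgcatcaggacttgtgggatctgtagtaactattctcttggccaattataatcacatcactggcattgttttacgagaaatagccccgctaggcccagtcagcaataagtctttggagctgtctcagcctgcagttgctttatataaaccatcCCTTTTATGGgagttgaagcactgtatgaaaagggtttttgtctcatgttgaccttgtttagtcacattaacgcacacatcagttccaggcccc
TNNT2 (chr1:201377681-201377930, minus strand): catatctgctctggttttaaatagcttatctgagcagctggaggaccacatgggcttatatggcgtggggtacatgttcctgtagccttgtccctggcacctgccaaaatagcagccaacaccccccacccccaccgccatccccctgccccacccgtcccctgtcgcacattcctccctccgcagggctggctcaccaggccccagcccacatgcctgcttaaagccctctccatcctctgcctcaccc
CNN1 (chr19:11538601-11538850, plus strand): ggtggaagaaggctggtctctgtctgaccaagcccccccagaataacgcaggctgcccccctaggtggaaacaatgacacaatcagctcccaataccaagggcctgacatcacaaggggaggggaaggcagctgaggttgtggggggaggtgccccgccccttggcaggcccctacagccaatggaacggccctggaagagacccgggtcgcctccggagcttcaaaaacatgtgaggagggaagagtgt
The SRF promoter held 2 CArG boxes, at -30 to -21 and at -10 to -1 relative to the start. The MYLK promoter held 1, at -94 to -85. The second ACTA2 promoter held 2 CArG-like sequences, at -121 to -112 and at -71 to -62. No match was found in the 250 bases of the TNNT2, CNN1 and LMOD1 promoters. Of 35116 human promoters of the same length, 1.16% held a CArG box and 7.04% a CArG box or a CArG-like sequence. A match describes the letters only.

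Libraries held 37878751 to 76906266 counts. Levels below are counts scaled to library size (CPM) by factors common to the 24 libraries. ID3, the targeted gene, was lower in KO than in WT cells without overlap at each of the 4 matched conditions. Its means were 30.6 CPM in untreated KO and 62.3 CPM in untreated WT U2OS cells. ID3 transcript was therefore still counted in KO cells, and its level does not check the protein. Of 9 osteoblast and osteosarcoma markers, 4 to 6 reached 1 CPM in each group, with COL1A1 and SPARC the most abundant, whereas the group means of SP7 stayed at or below 0.0513 CPM and IBSP was at 0 in untreated AID-DIvA WT cells. The summed level of the 4 skeletal muscle lineage factors (MYOD1, MYF5, MYF6 and MYOG) lay between 0.0169 and 0.168 CPM over all libraries. The epithelial gene EPCAM was at 4.89 to 10.1 CPM on group average, the leukocyte gene PTPRC at or below 0.350 CPM, the endothelial gene CDH5 at or below 0.765 CPM and the epithelial gene CDH1 at or below 1.78 CPM. U2OS WT untreated replicate 1 stood apart from the other replicates of its group: the chi-square per gene was 82.0 and 92.4 against them, whereas all other pairs of replicates lay between 2.62 and 24.5. For the 10 genes, results that involve this group are given with and without that library where the call differs. Results for other genes include that library unless stated. In these bulk samples, fewer cells expressing a gene and less RNA per cell cannot be told apart.

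The 10 genes differed widely in level. Per kilobase of exon, in untreated U2OS WT cells, SRF was the most abundant with 21.2 ± 1.71 CPM per kb (SD, n = 3), followed by CNN1 (calponin, an actin-binding protein) with 11.96 ± 2.22 CPM per kb and TAGLN (transgelin, a related actin-binding protein) with 10.8 ± 1.35 CPM per kb. MYLK, the myosin light chain kinase that triggers smooth muscle contraction, had 2.74 ± 0.844 CPM per kb. MYOCD itself was low, with 0.531 ± 0.0765 CPM per kb. DES and MYH11 were the lowest, with 0.0838 ± 0.0591 and 0.0678 ± 0.0254 CPM per kb. These levels are from counts of either strand, and counts of the sense strand of MYH11 gave 0.00846 ± 0.00357 CPM per kb.

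**Figure D1:**
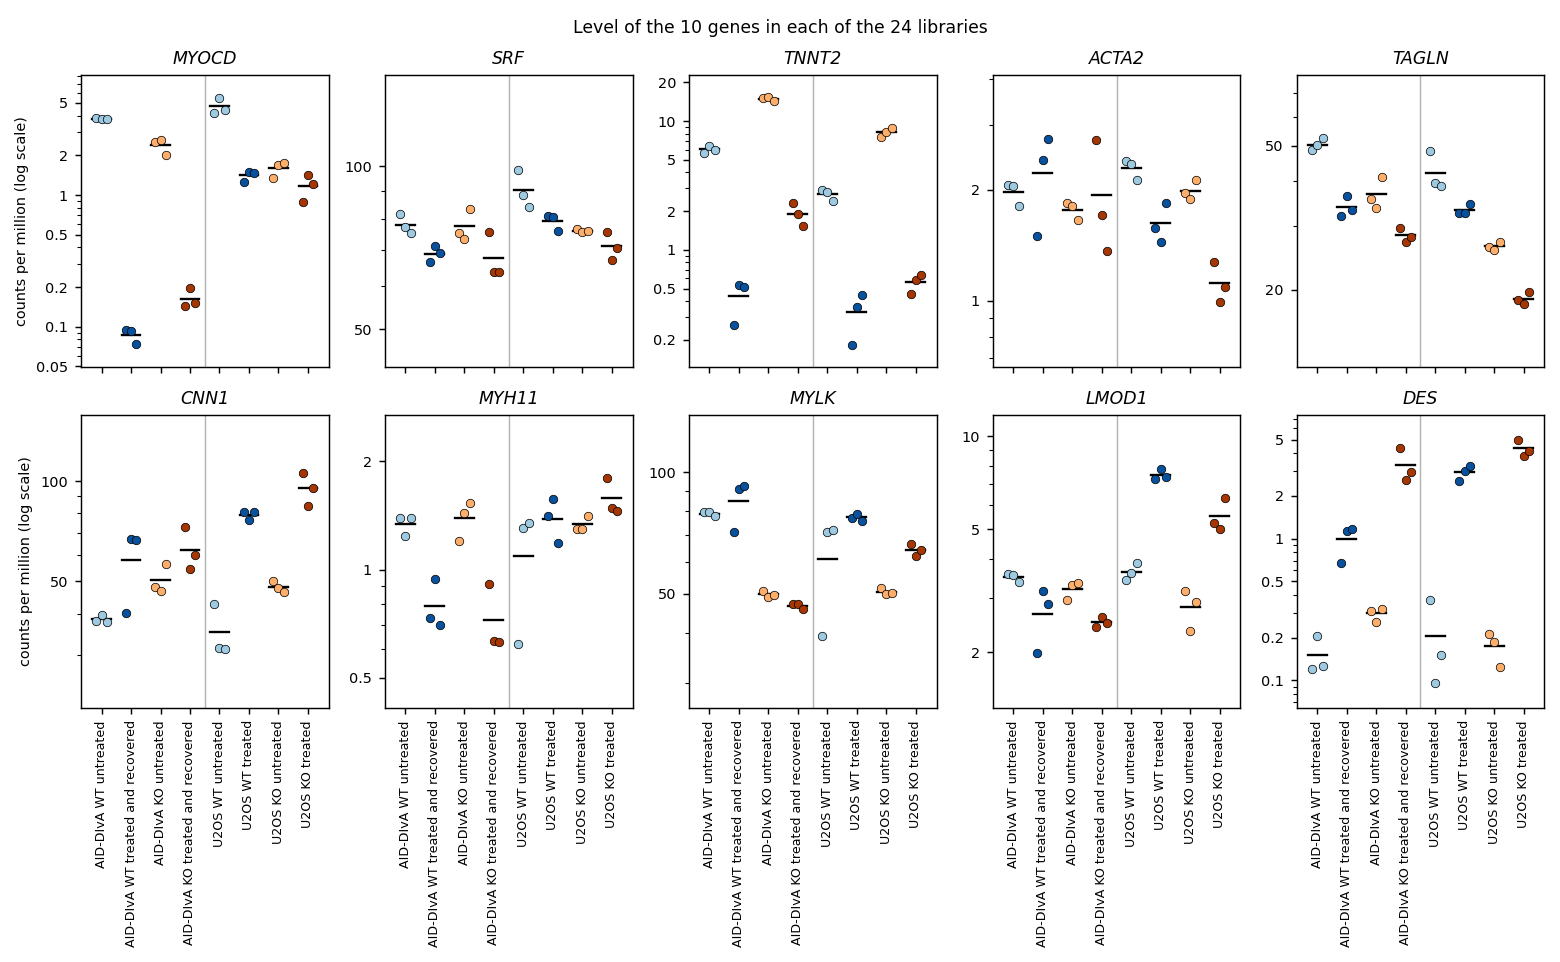
Level of each gene in CPM (vertical axis, log scale) in every library, by group; points are libraries, horizontal lines are means of 3, blue is WT and orange is KO, with darker points for treated cells. MYOCD and TNNT2 were lower and DES was higher in every treated group than in its untreated counterpart by mean, and SRF stayed between 63.8 and 98.4 CPM.

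MYOCD lies on chromosome 17 (GRCh37 chr17:12569207-12672266, plus strand). It was highest in untreated WT cells of both lines and lowest in recovered AID-DIvA cells. In U2OS WT cells, replicates 1 to 3 gave 4.21, 5.48 and 4.43 CPM untreated (272, 398 and 234 counts) and 1.25, 1.51 and 1.46 CPM treated (82, 76 and 111 counts). The groups did not overlap. In U2OS KO cells the values were 1.36, 1.69 and 1.76 CPM untreated and 0.891, 1.41 and 1.21 CPM treated, and here the groups overlapped. In AID-DIvA WT cells the gene gave 3.84, 3.80 and 3.78 CPM untreated (190, 221 and 239 counts) and 0.0939, 0.0921 and 0.0736 CPM after treatment and recovery (5, 4 and 4 counts). In AID-DIvA KO cells it gave 2.53, 2.64 and 2.02 CPM untreated and 0.142, 0.196 and 0.152 CPM after treatment and recovery (5, 13 and 7 counts). Ordered by mean, the 8 groups ran from U2OS WT untreated (4.71 ± 0.679 CPM) through AID-DIvA WT untreated, AID-DIvA KO untreated, U2OS KO untreated, U2OS WT treated and U2OS KO treated to AID-DIvA KO and then WT cells treated and recovered (0.164 ± 0.0287 and 0.0865 ± 0.0113 CPM). Neighbours in this order overlapped only where U2OS KO untreated, U2OS WT treated and U2OS KO treated follow each other.

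TNNT2, cardiac troponin T, anchors the calcium-sensing troponin complex on the thin filament of heart muscle (GRCh37 chr1:201328136-201346890, minus strand). In U2OS WT cells it gave 2.93, 2.80 and 2.41 CPM untreated and 0.183, 0.357 and 0.448 CPM treated. In U2OS KO cells it gave 7.58, 8.16 and 8.81 CPM untreated and 0.454, 0.587 and 0.635 CPM treated. All treated libraries lay below all untreated libraries in both genotypes. AID-DIvA WT cells gave 5.66, 6.46 and 5.99 CPM untreated and 0.263, 0.529 and 0.515 CPM treated and recovered, and AID-DIvA KO cells 15.1, 15.3 and 14.4 CPM and 2.31, 1.89 and 1.54 CPM. Unlike MYOCD, TNNT2 was highest in untreated KO cells, with means of 14.9 ± 0.508 CPM in AID-DIvA KO and 8.18 ± 0.612 CPM in U2OS KO cells. Neighbours in the order of its 8 groups overlapped only among U2OS KO treated, AID-DIvA WT treated and recovered and U2OS WT treated. A part of LAD1 (mean 1.23 CPM) overlaps TNNT2 on the same strand.

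DES encodes desmin, the intermediate filament of muscle cells (GRCh37 chr2:220283099-220291461, plus strand). Its untreated level was 7 to 24 counts per library, or 0.0964 to 0.372 CPM, in U2OS and 6 to 19 counts, or 0.121 to 0.321 CPM, in AID-DIvA cells. Treated U2OS cells gave 2.54, 2.996 and 3.25 CPM in WT and 4.99, 3.85 and 4.13 CPM in KO. After recovery, AID-DIvA WT cells gave 0.676, 1.13 and 1.18 CPM and AID-DIvA KO cells 4.39, 2.60 and 2.95 CPM. Every treated library lay above every untreated library of its line and genotype. The highest untreated value, 0.372 CPM, was that of U2OS WT untreated replicate 1.

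The first tested comparison asked how mocetinostat changed these genes in U2OS WT cells. CNN1, LMOD1 and DES rose and MYOCD, TNNT2, ACTA2 and TAGLN fell, so 3 of the 10 genes were called higher and 4 lower by edgeR at an adjusted p below 0.05, beside 26.0% and 22.9% of the 21797 genes tested. The median log2 difference of the 10 genes was 0.0856 and that of all genes 0.00577. The share called higher was near that of all genes. Among the genes called lower, MYOCD and TNNT2 had been chosen for their fall after the same drug in AID-DIvA cells. Nothing is read from the share called lower. DES rose by a log2 difference of 3.83 (SE 0.38, edgeR adjusted p = 0.00013), CNN1 by 1.18 (SE 0.13, adjusted p = 0.00023) and LMOD1 by 1.05 (SE 0.10, adjusted p = 9.7e-05). TNNT2 fell by 3.02 on the log2 scale (SE 0.28, edgeR adjusted p = 9.2e-05) and MYOCD fell by 1.74 on the log2 scale (SE 0.15, edgeR adjusted p = 7.4e-05). ACTA2 and TAGLN fell less, with log2 differences of -0.49 (SE 0.15, edgeR adjusted p = 0.028) and -0.33 (SE 0.10, edgeR adjusted p = 0.028). The ACTA2 call was lost without untreated replicate 2, treated replicate 1 or treated replicate 2, and the TAGLN call without any 1 of the treated replicates. Neither was called with the replicate block. Over 13 alternatives ACTA2 was called in 8 and TAGLN in 9. SRF (-0.18, SE 0.08), MYLK (0.36, SE 0.21) and MYH11 (0.35, SE 0.29) were not called. Without untreated replicate 1, SRF was called lower (-0.12) and MYLK higher (0.12), the other 7 calls held, and DES gave 4.60. Of 8 osteoblast markers tested, 2 rose and 4 fell beside these changes, and their summed level went from 3811 to 4150 CPM in untreated to 2416 to 2638 CPM in treated libraries. SPP1 rose (1.02, edgeR adjusted p = 2.5e-05), as did EPCAM (0.66, edgeR adjusted p = 0.00079) and CDH5 (2.76, edgeR adjusted p = 0.00038, from 0.114 to 0.765 CPM), 2 of 4 markers of other cell types tested. The part of these markers in the result was not tested.

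The same comparison was made in U2OS KO cells. CNN1, MYLK, LMOD1 and DES rose and MYOCD, TNNT2, ACTA2 and TAGLN fell, 4 of 10 in each direction, beside 35.8% and 34.0% of the 21176 genes tested. Both shares were close to those of all genes. DES rose by a log2 difference of 4.63 (SE 0.21, edgeR adjusted p = 4.4e-15). TNNT2 fell by 3.86 on the log2 scale (SE 0.14, edgeR adjusted p = 5.8e-17). CNN1 and LMOD1 each rose by 0.99 (SE 0.06 and 0.12, edgeR adjusted p = 1.6e-11 and 1.4e-07), and MYLK by 0.35 (SE 0.05, edgeR adjusted p = 5.8e-07). ACTA2, the smooth muscle actin, fell by 0.82 on the log2 scale (SE 0.16, edgeR adjusted p = 6.7e-05), from 1.96, 1.89 and 2.12 CPM to 1.28, 0.990 and 1.09 CPM. TAGLN fell by 0.47 on the log2 scale (SE 0.06, edgeR adjusted p = 8.1e-08), from 26.4, 25.8 and 27.2 CPM to 18.7, 18.3 and 19.8 CPM. MYOCD fell by 0.45 on the log2 scale (SE 0.18, edgeR adjusted p = 0.029), and this call did not hold with DESeq2 or without untreated replicate 2, untreated replicate 3, treated replicate 1 or treated replicate 3; over 13 alternatives the adjusted p lay between 0.0077 and 0.15. SRF (-0.09, SE 0.05) was not called, except without treated replicate 1 (-0.14). Of 8 osteoblast markers tested, 3 rose and 4 fell. Their sum, carried by COL1A1 and SPARC, was 3047 to 3230 CPM untreated and 1983 to 2156 CPM treated, whereas SPP1 rose from 16.4 to 54.2 CPM (1.72, edgeR adjusted p = 7.0e-17). EPCAM (0.79, edgeR adjusted p = 8.1e-09) and CDH5 (2.30, edgeR adjusted p = 6.4e-07) rose and PTPRC fell (-0.96, edgeR adjusted p = 0.020). The part of these markers in the result was not tested.

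**Figure D2:**
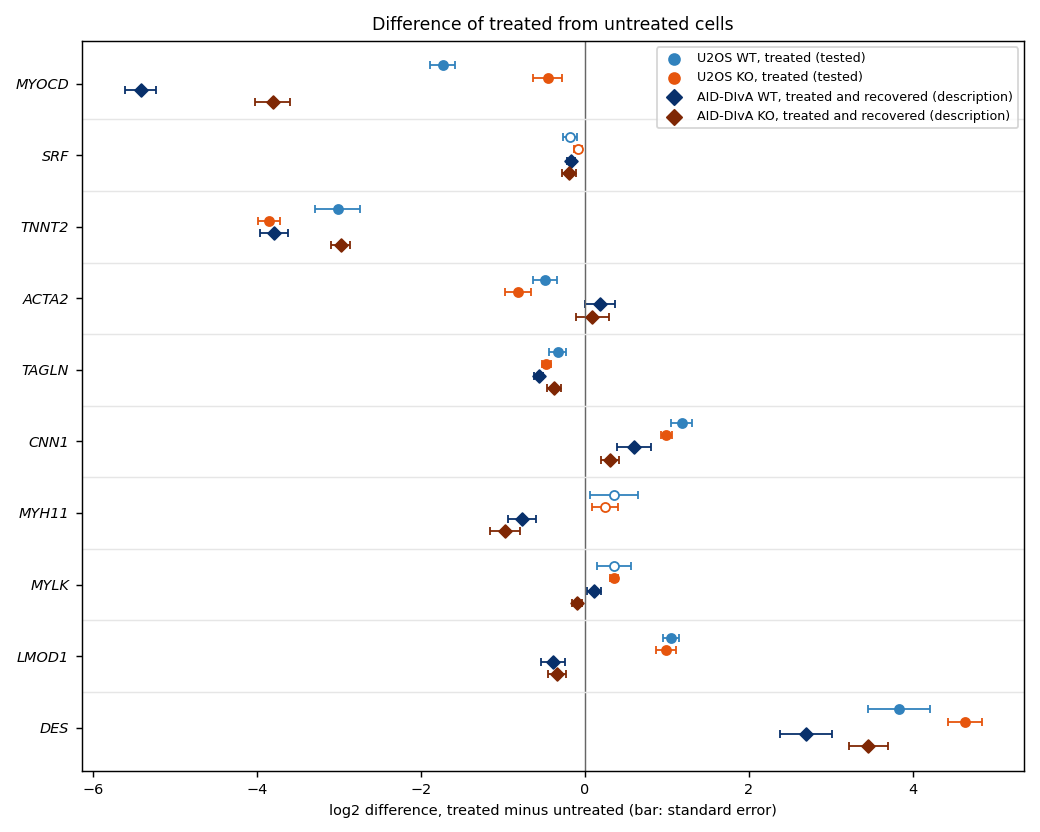
Log2 difference of treated from untreated cells (horizontal axis, with SE as bars) for the 10 genes; circles are tested comparisons in U2OS, filled where called and open where not, and diamonds are AID-DIvA cells after recovery, a description with no test. MYOCD lay at -1.74 in U2OS WT, -0.45 in U2OS KO, -5.42 in AID-DIvA WT and -3.81 in AID-DIvA KO cells, while DES was positive throughout.

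Whether the response to mocetinostat differed between KO and WT U2OS cells was tested by the genotype by treatment interaction over 12 libraries. MYOCD was the only gene of the 10 that was called, beside 1.10% of 22647 genes called higher, 1.06% lower and 2.15% in either direction. Its log2 response was higher by 1.29 (SE 0.25, edgeR adjusted p = 0.015) in KO than in WT cells: it fell by 1.74 on the log2 scale from 4.71 CPM in WT and fell by 0.45 from 1.603 CPM in KO cells. The difference stayed between 1.14 and 1.45 over 18 alternatives, with an adjusted p between 5.4e-05 and 0.055; the call was lost without WT treated replicate 1 (1.21), KO untreated replicate 1 (1.19), KO treated replicate 2 (1.14) or KO treated replicate 3 (1.26). The largest differences among the other genes were those of TNNT2 (-0.84, SE 0.32) and DES (0.80, SE 0.50), neither called. The DES value fell to 0.030 without U2OS WT untreated replicate 1, and that of TNNT2 was -0.50 without WT treated replicate 3 and ran to -1.14 without WT treated replicate 1. Without U2OS WT untreated replicate 1 the interaction was also called for TAGLN (-0.25), CNN1 (-0.35) and MYLK (0.23).

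The differences between KO and WT cells with no drug bore on the baseline. In untreated U2OS cells, TNNT2 was higher in KO and MYOCD and TAGLN were lower, 1 and 2 of the 10 genes beside 6.56% and 8.63% of 20621 genes. TNNT2 differed by 1.59 (SE 0.12, edgeR adjusted p = 0.00022), MYOCD by -1.56 (SE 0.16, edgeR adjusted p = 0.00095) and TAGLN by -0.68 (SE 0.10, edgeR adjusted p = 0.0045). CNN1 was at 50.03, 47.7 and 46.5 CPM in KO and 42.7, 31.4 and 31.3 CPM in WT cells, a difference of 0.45 (SE 0.13, edgeR adjusted p = 0.055). Without U2OS WT untreated replicate 1, 2 genes were higher and 5 lower: CNN1 joined with 0.61, and SRF (-0.19), MYLK (-0.50) and LMOD1 (-0.42) were called lower. MYLK was at 39.2 CPM in that library and at 71.3 and 72.0 CPM in the other 2 of its group, against 51.7, 49.8 and 50.2 CPM in KO cells. LMOD1 differed by -0.06 with sense counts of all 6 libraries and was not called. The genes called over the whole table then rose from 1352 to 4304 higher and from 1780 to 4323 lower. Of 7 osteoblast markers tested with all 6 libraries, 5 were lower in KO cells and none was higher, among them RUNX2 (-0.81), ALPL (-1.73) and SPP1 (-0.82), and their part in the result was not tested.

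In untreated AID-DIvA cells, TNNT2, CNN1 and DES were higher and MYOCD, TAGLN and MYLK lower in KO than in WT cells, 3 of 10 in each direction beside 18.6% and 18.1% of 20441 genes. TNNT2 differed by 1.28 (SE 0.07, edgeR adjusted p = 8.3e-10), MYOCD by -0.68 (SE 0.11, edgeR adjusted p = 0.00011), TAGLN by -0.48 (SE 0.07, edgeR adjusted p = 3.6e-05) and MYLK by -0.69 (SE 0.04, edgeR adjusted p = 5.9e-09). MYLK was at 79.8, 79.5 and 77.8 CPM in WT and 50.9, 49.2 and 49.7 CPM in KO cells. CNN1 differed by 0.36 (SE 0.07, edgeR adjusted p = 0.00047), a call lost with all 4 groups in 1 fit (adjusted p up to 0.13 over 13 alternatives). DES, at 6 to 12 counts per WT library, differed by 0.92 (SE 0.33, edgeR adjusted p = 0.039), and its call held in 3 of 12 alternatives; it was lost without any 1 of 5 libraries (WT replicates 1 and 3 and KO replicates 1, 2 and 3), where the difference lay between 0.78 and 1.02. Higher TNNT2 with lower MYOCD and TAGLN was thus called in untreated KO cells of both lines. Whether the size of these differences varied between the lines was not tested. Of 7 osteoblast markers, 4 were lower (RUNX2, ALPL, COL1A2 and SPP1) and SPARC was higher in AID-DIvA KO cells, and of the 3 other markers tested EPCAM was higher and CDH1 lower. Their part in the result was not tested.

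In treated U2OS cells, 2 of the 10 genes were higher in KO cells (CNN1 and DES) and 5 were lower (SRF, ACTA2, TAGLN, MYLK and LMOD1), beside 19.0% of 21800 genes in each direction. TAGLN differed by -0.81 (SE 0.06, edgeR adjusted p = 1.2e-12), ACTA2 by -0.54 (SE 0.17, edgeR adjusted p = 0.011) and LMOD1 by -0.43 (SE 0.09, edgeR adjusted p = 0.00029). The ACTA2 call was lost without WT treated replicate 3 (-0.44), and sense counts gave -0.33, still called. DES differed by 0.56 (SE 0.12, edgeR adjusted p = 0.00034), CNN1 by 0.27 (SE 0.06, edgeR adjusted p = 0.00049) and MYLK by -0.27 (SE 0.05, edgeR adjusted p = 3.0e-05). With all 4 groups in 1 fit these 3 were not called, and over 13 alternatives each the adjusted p reached 0.079, 0.12 and 0.27. SRF differed by -0.15 (SE 0.05, edgeR adjusted p = 0.014), from 81.0, 80.6 and 75.9 CPM in WT to 75.5, 67.0 and 70.7 CPM in KO cells, and was called in 9 of 13 alternatives. It was not called with all 4 groups in 1 fit, nor without WT treated replicate 1, WT treated replicate 2 or KO treated replicate 3 (-0.14 to -0.15 for these 3). MYOCD, at 1.41 ± 0.136 CPM in WT and 1.17 ± 0.263 CPM in KO cells, differed by -0.26 (SE 0.18, edgeR adjusted p = 0.27). TNNT2 differed by 0.75 (SE 0.31, edgeR adjusted p = 0.055). It was called in 5 of 13 alternatives: without WT treated replicate 3 (1.08), without KO treated replicate 1 (0.89), with at least 10 counts in every library, with sense counts and with the replicate block. Over the 13 its difference lay between 0.46 and 1.08. Of 8 osteoblast markers tested, 4 were lower (RUNX2, ALPL, COL1A1 and COL1A2) and none was higher in KO cells, and their part in the result was not tested. The comparisons of treatment, genotype and interaction share libraries and are not independent of each other.

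**Figure D3:**
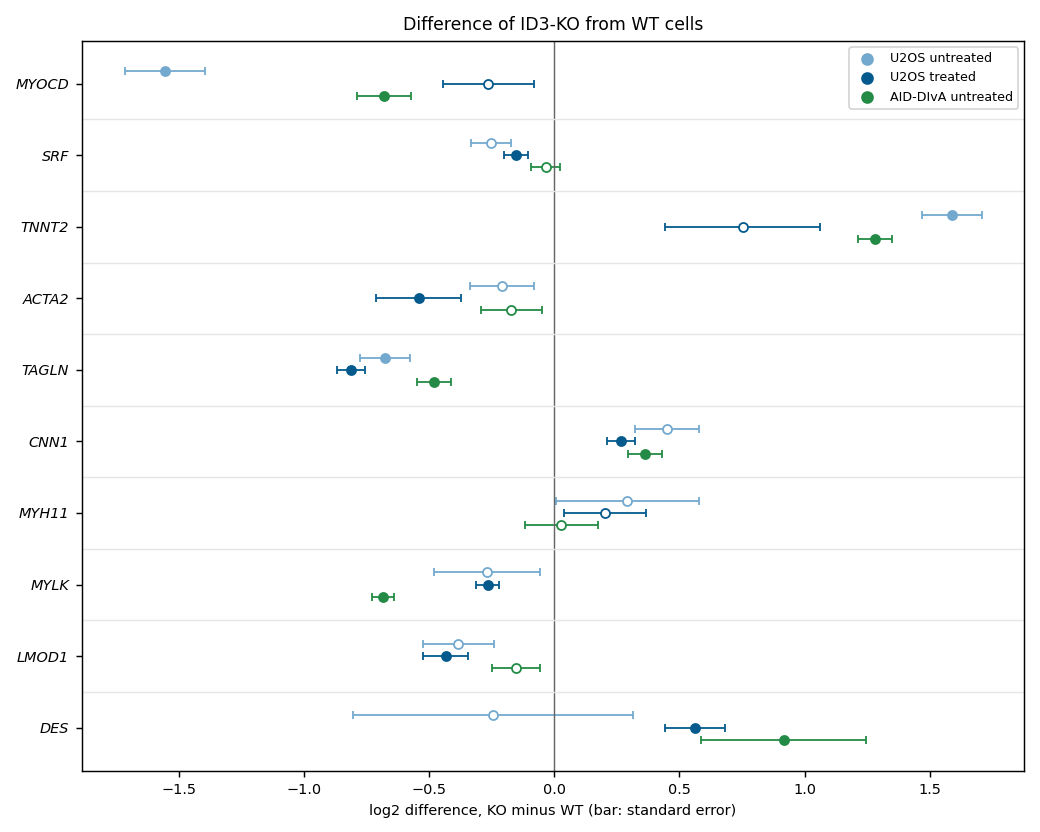
Log2 difference of KO from WT cells (horizontal axis, with SE as bars) in untreated and treated U2OS and in untreated AID-DIvA cells; filled circles were called and open circles were not. TNNT2 lay at 1.59, 0.75 and 1.28 and TAGLN at -0.68, -0.81 and -0.48 in these 3 comparisons.

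AID-DIvA cells after recovery are described without a test, since the contrast chose the genes. In WT cells the log2 difference from untreated cells was -5.42 (SE 0.19) for MYOCD, -3.79 (SE 0.17) for TNNT2 and 2.69 (SE 0.31) for DES. In KO cells it was -3.81 (SE 0.21), -2.98 (SE 0.12) and 3.45 (SE 0.24) for the same genes. For TAGLN it was -0.57 in WT (SE 0.06) and -0.38 in KO cells (SE 0.09), and for MYH11 -0.76 (SE 0.17) and -0.97 (SE 0.18). Sense counts of MYH11 ran the other way by mean, from 0.0907 to 0.152 CPM in WT and from 0.113 to 0.187 CPM in KO cells. They were 4, 6 and 6 untreated and 10, 8 and 5 recovered in WT cells. In KO cells they were 8, 6 and 7 untreated and 12, 7 and 6 recovered, and the groups overlapped in both genotypes. CNN1 was at 40.3, 67.2 and 66.4 CPM in recovered and 38.0, 39.6 and 37.9 CPM in untreated WT cells, so that 1 recovered library lay near the untreated level. For ACTA2 and MYLK it was 0.18 (SE 0.19) and 0.11 (SE 0.08) in WT, 0.09 (SE 0.20) and -0.09 (SE 0.06) in KO cells. Groups did not overlap for 2 genes that were higher and 6 that were lower in WT cells, where 27.3% and 28.8% of 20289 genes did not overlap in these directions. In KO cells 1 gene was higher and 6 were lower without overlap, where 25.4% and 27.1% of 20362 genes were. Nothing is read from these counts.

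The strand of the reads mattered for MYH11, LMOD1 and ACTA2. Libraries were stranded, and 93.94% to 94.83% of the stranded counts were on the sense strand. For MYH11, the smooth muscle myosin heavy chain, the stranded counts lay mostly on the opposite strand: in recovered AID-DIvA WT cells, replicate 1 had 10 sense and 474 opposite-strand counts, and 39 in the count of either strand. NDE1, a gene of 46.8 CPM, overlaps MYH11 on that strand. Sense counts of MYH11 were 3 to 30 per library, so its values of either strand do not describe MYH11 transcript alone. With sense counts, MYH11 rose in treated U2OS KO cells by a log2 difference of 1.94, from 6, 8 and 3 to 30, 24 and 17 counts, and was called there by edgeR (adjusted p = 0.00028; 0.00028 to 0.50 over 13 alternatives, of which this alone called the gene). In U2OS WT cells it was 1.01 by the same counts and not called. In the untreated KO to WT comparisons and in both AID-DIvA treatment contrasts the sense counts of MYH11 fell below the filter and could not be fitted.

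LMOD1, leiomodin, nucleates actin filaments in smooth muscle, and its last part overlaps RP11-307B6.3 on the opposite strand. Sense counts of LMOD1 in U2OS WT cells were 75, 55 and 57 untreated and 297, 252 and 380 treated. The groups lay far apart. In recovered AID-DIvA WT cells they were 19, 33 and 32, against 98, 97 and 112 untreated. With sense counts LMOD1 rose by 2.30 in U2OS WT and by 1.93 in U2OS KO cells, where either strand gave 1.05 and 0.99. In AID-DIvA cells after recovery sense counts gave -1.68 in WT and -1.66 in KO cells, where either strand gave -0.39 and -0.34. Both the rise in U2OS and the lower level in AID-DIvA cells were larger by sense counts. The opposite-strand counts of LMOD1 moved less, from 297, 336 and 253 to 366, 291 and 415 in U2OS WT cells.

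**Figure D4:**
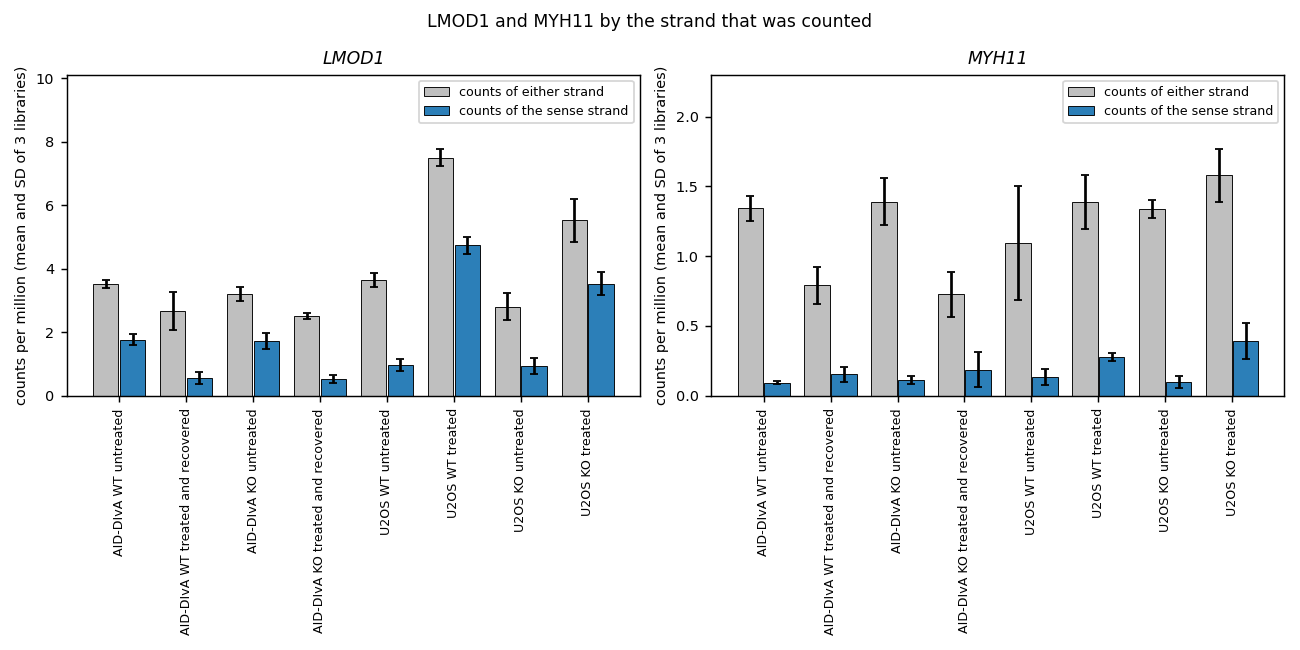
Mean level and SD of 3 libraries in CPM (vertical axis) for LMOD1 and MYH11, from counts of either strand (grey) and of the sense strand (blue), in the 8 groups. Sense LMOD1 ran from 0.529 CPM in recovered AID-DIvA KO to 4.73 CPM in treated U2OS WT cells, and sense MYH11 stayed at or below 0.392 CPM on average.

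ACTA2 is overlapped by STAMBPL1, ACTA2-AS1 and FAS on the other strand, and actin genes share near-identical coding sequence, so its counts of 54 to 171 per library are uncertain in that respect. Sense counts gave a higher level, 2.63 ± 0.363 against 1.12 ± 0.146 CPM in treated U2OS KO cells. TAGLN and MYLK are partly overlapped by PCSK7 and MYLK-AS1. MYOCD had at most 1 count on the opposite strand in any library, where RP11-1090M7.1 and AC005358.3 overlap it. Its sense counts were mostly higher than those of either strand, for example 106 against 76 in U2OS WT treated replicate 2. With sense counts the calls of ACTA2, TAGLN and MYOCD in the U2OS treatment comparisons held.

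Among 21 SRF cofactors and partner factors (a list that includes MKL1, MKL2, the ELK, MEF2 and TEAD factors, GATA4, NKX2-5 and FHL2), 6 were called higher and 5 lower with mocetinostat in U2OS WT cells, and 9 and 6 in KO cells. These counts were near the shares of all genes, which were 26.0% and 22.9% in WT and 35.8% and 34.0% in KO cells. Without U2OS WT untreated replicate 1, 9 cofactors were higher and 7 lower in WT cells. The genes called over the whole table then rose from 5658 to 7594 higher and from 4995 to 7294 lower. The median log2 differences were 0.14 and 0.0578, against 0.00577 and 0.000861 over all genes. The MRTF gene MKL1 rose from 103 to 135 CPM in WT cells (0.40, SE 0.07, edgeR adjusted p = 0.0029) and from 102 to 115 CPM in KO cells (0.18, SE 0.06, edgeR adjusted p = 0.0073). MKL2 was not called in WT cells (0.08, SE 0.30) and fell in KO cells (-0.18, SE 0.05, edgeR adjusted p = 0.0018). ELK4 fell in both, by log2 differences of -0.76 (edgeR adjusted p = 0.00091) and -0.75 (edgeR adjusted p = 3.8e-12). FOXO4, a forkhead factor known to restrain myocardin, rose by 1.20 and 1.14 (edgeR adjusted p = 0.00014 and 3.9e-13).

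In the interaction, 2 of the 21 cofactors were called, both higher, beside 1.10% of all genes called higher. MEF2C was among them (2.46, SE 0.20, edgeR adjusted p = 1.5e-05). MEF2C, a muscle and cardiac transcription factor, fell with mocetinostat from 3.44 to 2.02 CPM in WT and rose from 0.579 to 1.87 CPM in KO cells. MYOCD and MEF2C were both lower in untreated KO than in untreated WT cells of both lines. For MEF2C the differences were -2.57 (SE 0.18, edgeR adjusted p = 0.00016) in U2OS and -1.09 (SE 0.13, edgeR adjusted p = 6.3e-06) in AID-DIvA cells. The ternary complex factor ELK1 was also lower in KO cells, from 118 to 56.3 CPM in untreated U2OS cells (-1.07, edgeR adjusted p = 9.2e-05) and from 112 to 54.9 CPM in untreated AID-DIvA cells (-1.05, edgeR adjusted p = 1.7e-10). FHL2, which binds SRF, differed by -0.56 (edgeR adjusted p = 0.0080) and -0.86 (edgeR adjusted p = 1.3e-09). The other direction also occurred: TEAD4 was higher in KO cells of both lines (0.51, edgeR adjusted p = 0.0023, and 0.39, edgeR adjusted p = 0.00016), and TEAD1 (0.25, edgeR adjusted p = 0.00032) and MEF2A (0.24, edgeR adjusted p = 0.00084) were higher in AID-DIvA KO cells. Of the 21 cofactors, 1 was higher and 4 were lower in untreated U2OS KO cells, beside 6.56% and 8.63% of all genes. In untreated AID-DIvA KO cells 5 were higher and 4 lower, near the 18.6% and 18.1% of all genes.

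Immediate early genes, the SRF targets served by the ternary complex factors, moved mostly in 1 direction. With mocetinostat, 12 of 14 genes rose and none fell in U2OS WT cells, and 11 of 13 rose and none fell in U2OS KO cells, beside the 26.0% and 35.8% of all genes called higher. The median log2 differences were 0.93 and 0.818. ATF3 rose from 28.95 ± 0.575 to 108 ± 0.644 CPM in WT cells (1.92, SE 0.07, edgeR adjusted p = 1.2e-06), and FOS from 50.3 ± 7.47 to 137 ± 31.9 CPM (1.45, SE 0.18, edgeR adjusted p = 0.00042). In KO cells FOS rose from 17.9 ± 2.86 to 46.1 ± 5.57 CPM (1.37, SE 0.11, edgeR adjusted p = 2.8e-07). Leaving out 1 library brought the count in WT cells down to 8 at the lowest, without treated replicate 1. Between genotypes, 8 of 13 were lower and none higher in untreated KO than WT U2OS cells, and 11 of 14 lower and 1 higher in treated cells, beside 8.63% and 19.0% of all genes called lower. EGR2 was at 0.353 ± 0.0802 CPM in KO and 3.61 ± 0.651 CPM in WT untreated cells (-3.35, SE 0.23, edgeR adjusted p = 0.00016). In untreated AID-DIvA cells 3 of 13 were lower and 2 higher in KO, near the 18.1% and 18.6% of all genes.

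The targets served by the MRTF coactivators were called in both directions. Of 25 cytoskeletal genes, 9 rose and 8 fell in U2OS WT cells with mocetinostat, and 10 rose and 9 fell in KO cells, beside 26.0% and 22.9% of all genes in WT and 35.8% and 34.0% in KO cells, with medians of 0.013 and -0.0157. Without U2OS WT untreated replicate 1, 13 rose and 11 fell in WT cells. Calls over the whole table also grew then, from 5658 to 7594 higher and from 4995 to 7294 lower. TPM1, a tropomyosin, fell from 574 ± 21.4 to 165 ± 2.98 CPM in WT (-1.79, SE 0.07, edgeR adjusted p = 2.2e-06) and from 456 ± 26.1 to 129 ± 4.10 CPM in KO cells (-1.82, SE 0.05, edgeR adjusted p = 4.7e-19). LIMA1, an actin-bundling protein, rose in KO cells by 1.13 (SE 0.04, edgeR adjusted p = 2.9e-16). Between genotypes, 13 of 25 were lower and 6 higher in treated KO than WT U2OS cells, beside 19.0% of all genes in each direction. In untreated cells 4 were lower and 1 higher in U2OS KO, beside 8.63% and 6.56% of all genes, and 7 were lower and 5 higher in AID-DIvA KO, beside 18.1% and 18.6%. In treated U2OS cells VCL, which encodes the focal adhesion protein vinculin, was at 259 ± 6.14 CPM in KO and 373 ± 2.33 CPM in WT cells (-0.53, SE 0.04, edgeR adjusted p = 1.1e-11).

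The other smooth muscle genes were also called in both directions. Of 17 tested in U2OS WT cells, 7 rose and 4 fell with mocetinostat, and of 18 tested in KO cells, 9 rose and 7 fell, beside the same shares of all genes (26.0% and 22.9% in WT, 35.8% and 34.0% in KO cells). Without U2OS WT untreated replicate 1, 8 rose and 6 fell in WT cells, while calls over the whole table grew from 5658 to 7594 higher and from 4995 to 7294 lower. SYNPO2 (synaptopodin-2, an actin-bundling protein) rose from 0.188 ± 0.0877 to 2.77 ± 0.264 CPM in WT (3.90, SE 0.29, edgeR adjusted p = 3.0e-05) and SMTNL2 (a smoothelin-like protein) from 0.279 ± 0.203 to 2.63 ± 0.131 CPM (3.21, SE 0.38, edgeR adjusted p = 0.00031). NEXN, an actin-binding protein of the Z-disc, fell from 20.4 ± 0.943 to 4.69 ± 0.193 CPM (-2.11, SE 0.08, edgeR adjusted p = 2.2e-06). Genes of the striated muscle sarcomere, the setting of TNNT2, rose in 12 cases and fell in 7 of 27 tested in WT cells and of 26 tested in KO cells, beside those same shares. In WT cells 13 of them rose and 8 fell without U2OS WT untreated replicate 1, beside the same growth of calls over the whole table. ANKRD1, a cardiac stress-response gene, rose from 191 to 1175 CPM in WT cells (2.63, SE 0.09, edgeR adjusted p = 1.2e-06). Between genotypes, sarcomere genes were called in both directions: 4 higher and 5 lower of 25 in untreated U2OS KO cells, beside 6.56% and 8.63% of all genes, and 8 higher and 6 lower of 23 in untreated AID-DIvA KO cells, beside 18.6% and 18.1%. In U2OS KO cells TCAP (-0.97, SE 0.18, edgeR adjusted p = 0.011) and LDB3 (-0.84, SE 0.18, edgeR adjusted p = 0.020), both of the Z-disc, were lower. The troponin C gene TNNC1, whose product is in the same complex as troponin T, was higher in KO cells, with 9.61 against 1.99 CPM in untreated U2OS (2.26, SE 0.20, edgeR adjusted p = 0.00046) and 6.75 against 0.579 CPM in untreated AID-DIvA cells (3.49, SE 0.16, edgeR adjusted p = 1.3e-10). With mocetinostat in U2OS cells, the troponin I gene TNNI3 rose where TNNT2 fell. It went from 0.869 to 3.03 CPM in WT cells (1.81, SE 0.15, edgeR adjusted p = 5.1e-05). In KO cells it went from 0.654 to 3.27 CPM (2.33, SE 0.16, edgeR adjusted p = 7.2e-12).

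**Figure D5:**
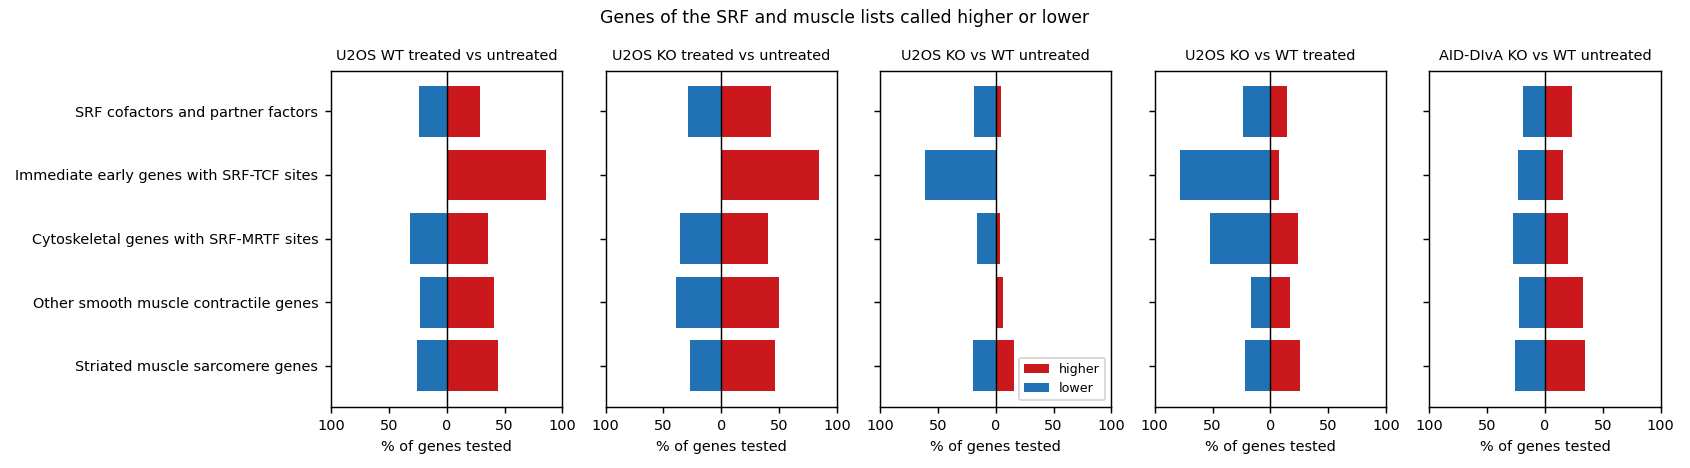
Share of the genes tested in each list (horizontal axis, %) that were called higher (red, right) or lower (blue, left) in 5 comparisons. Immediate early genes rose in 12 of 14 (WT) and 11 of 13 (KO) cases with treatment, while the other lists had calls in both directions in the treatment comparisons.

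Across the 24 libraries, the genes with a pattern most like MYOCD were not contractile genes. By Pearson's r of log2(CPM + 0.1) among 15592 genes, a description in which the libraries share treatment, line and depth, the nearest were TRIB2 (0.966), PIM1 (0.961), SYNDIG1 (0.953), CABLES2 (0.945) and LNP1 (0.935). TRIB2, a pseudokinase, was at 100.1 ± 11.98 CPM in U2OS WT untreated cells and at 12.8 ± 0.633 CPM in recovered AID-DIvA WT cells. PIM1, a serine/threonine kinase, ran between 53.7 ± 0.975 and 30.0 ± 3.05 CPM in the same groups. Of the other members, SRF had the highest r (0.712), then MYH11 (0.604), TNNT2 (0.515), TAGLN (0.39) and LMOD1 (0.338). The value of MYH11 comes from counts of either strand, which do not describe its transcript alone, and its Spearman rho was 0.27. ACTA2 (-0.000656) and MYLK (-0.049) were near 0, and CNN1 (-0.448) and DES (-0.589) were negative. The order differed in part by Spearman rho, which was 0.711 for SRF, 0.598 for TAGLN, 0.587 for TNNT2 and 0.36 for LMOD1. It was 0.197 for ACTA2, -0.0087 for MYLK, -0.665 for CNN1 and -0.696 for DES.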

How the data were processed

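RNA was sequenced as stranded, paired-end 100 bp total RNA libraries. As deposited by the authors, each file held counts of reads per gene for 57820 genes (featureCounts after STAR alignment to hg19) from either strand and from each strand. Counts of either strand were used. The FPKM and TPM columns were not used. Groups came from sample titles, and replicates are biological replicates by the study's description. Differences were fitted with edgeR 4.0.16 (R 4.3.3): TMM scaling, filterByExpr, robust quasi-likelihood test and Benjamini-Hochberg adjustment over all genes, called at an adjusted p below 0.05. Each fit held the 6 libraries of a comparison (12 for the interaction). The step was tested on simulated counts. Alternatives were DESeq2 1.42.0, its size factors, no filter, at least 10 counts in every library, sense-strand counts, the replicate block, all 4 groups of a line in 1 fit, a log2 difference beyond 1, and leaving out each library.

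The genes, lists and tests were chosen with earlier results of these data known. From each list, the text names up to 3 called genes per comparison with the largest log2 difference, a mean of at least 1 CPM and no overlap between groups. All SRF cofactors of at least 1 CPM could be named, and 1 of them is not reported here. The comparisons share control libraries. Library totals limit precision for genes of few counts, such as DES, MYOCD after recovery and sense-strand MYH11.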

Additional observations from a re-analysis of the deposited data

Results flagged for a closer look

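The response of MYOCD to mocetinostat differed between genotypes in U2OS cells. The log2 response was 1.287 higher in KO than in WT cells by the interaction test of edgeR (adjusted p = 0.015). Over 18 alternatives the adjusted p lay between 5.4e-05 and 0.055.

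By counts of either strand, for 3 genes every treated library moved one way in AID-DIvA cells after recovery and the opposite way in U2OS cells without recovery. For LMOD1 the AID-DIvA response minus the U2OS response was -1.443 in WT and -1.334 in KO cells on the log2 scale. For MYH11 it was -1.219 and for MYLK -0.4419, both in KO cells. The MYLK change itself was small in AID-DIvA KO cells, -0.09 (SE 0.06), against 0.35 (SE 0.05) in U2OS KO cells. The differences between the 2 responses were not tested. Line and stage of collection coincide and cannot be told apart, and the AID-DIvA contrast had served to choose the genes. Most stranded counts of MYH11 lay on the opposite strand. By sense counts its mean was higher after treatment in both lines of KO cells, 0.187 against 0.113 CPM in AID-DIvA and 0.392 against 0.0991 CPM in U2OS. The opposite directions were therefore not seen by sense counts. In AID-DIvA KO cells these were only 12, 7 and 6 after recovery and 8, 6 and 7 untreated, and the groups overlapped.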

How the results depend on the processing

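Of the 60 gene-by-comparison results tested, the alternatives gave 745 values with the same direction and call, 24 that gained a call, 37 that lost it and 17 that changed sign. Where no cause is given by the construction of an alternative, the cause was not tested.

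A log2 difference beyond 1 was a stricter call: it left 2958 genes higher and 1103 lower in treated U2OS WT cells (2 of the 10 genes lower), 3086 and 1222 in treated U2OS KO cells (1 of the 10 in each direction), 102 and 52 in the interaction, 292 and 586 in KO against WT untreated U2OS cells (1 of the 10 lower), 286 and 475 in treated U2OS cells (0 and 0), 465 and 471 in untreated AID-DIvA cells (1 and 0), and 986 and 512 in AID-DIvA WT and 997 and 521 in AID-DIvA KO cells after recovery.

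For the interaction, DESeq2 called 459 genes higher and 458 lower, and no filter gave 434 higher. With all 4 groups in 1 fit, 2599 genes were higher and 3059 lower in untreated KO U2OS cells (4 of the 10 lower), 2054 and 2335 in treated KO U2OS cells (0 and 3 of the 10), and 1 of the 10 was higher in untreated AID-DIvA KO cells. In untreated KO U2OS cells 2 of the 10 were higher with DESeq2, with no filter, with sense-strand counts, with the block and with all 4 groups. The interaction changed sign for MYH11 with sense-strand counts (0.94) and for MYLK with no filter (0.015), with at least 10 counts (0.0026) and with sense-strand counts (0.0057), none of them called.

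Same-numbered replicates correlated between -0.3 and 0.184, not above 0.1 in every pair, and the main fits did not pair them. With values centred within groups of 3 libraries, this check cannot exclude a shared batch or harvest. With the replicate block, 2 of the 10 genes were lower in treated U2OS WT cells.

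Leaving out 1 library gave 2 to 5 of the 10 genes lower in treated U2OS WT cells. In the interaction it gave 134 to 1034 genes higher and 123 to 1057 lower, with 0 to 2 of the 10 in each direction, and values of -0.27 to 0.19 for MYH11, -0.14 to 0.23 for MYLK and -0.18 to 0.037 for LMOD1. In untreated KO against WT U2OS cells it gave 544 to 4304 higher and 722 to 4323 lower, 1 to 2 and 2 to 5 of the 10, and -0.61 to 0.52 for DES. In untreated AID-DIvA cells SRF ran from -0.11 to 0.0080 and MYH11 from -0.047 to 0.13. In AID-DIvA KO cells after recovery 2641 to 4213 genes were lower. The highest counts of the U2OS interaction and untreated comparisons came without U2OS WT untreated replicate 1.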
